A study of Mus musculus with 3 samples.

Results

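The *Rbfox* genes were described here through the accessible chromatin of dopaminergic neurons (DNs). The members were the 3 mouse genes *Rbfox1*, *Rbfox2* and *Rbfox3*, of 21755 protein-coding genes in the GENCODE M21 annotation. A peak was given to a gene when at least 1 bp of it lay in the gene body, which gave 77 of 55326 peaks, or 0.139%. The series holds 3 samples. DNs came from 2 single-nucleus ATAC-seq libraries of the midbrain ventral tegmental area (VTA) of male C57Bl/6Nl mice, aged 7 weeks (replicate 1) and 9 weeks (replicate 2), with no treatment or transgene named in the labels. The third sample, bulk ATAC-seq of 46C mouse embryonic stem (mES) cells, was not analysed here.

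ATAC-seq marks DNA that a transposase can enter, such as active promoters, enhancers and some sites of bound factors. The DN peaks are 1 list that pools both libraries, and each entry is only a chromosome, a start and an end, 500 bp apart. The list itself gives no height, count, p-value or depth, so no spread between replicates can be given, nothing was tested, and every comparison is a description. A position without a peak was not called accessible in this list, which does not show that it is closed.

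Rbfox proteins are RNA-binding splicing regulators that recognize a GCAUG element, mostly in introns, and switch neighbouring exons in or out of mRNA. *Rbfox1* and *Rbfox3* are best known from neurons, where the Rbfox3 protein is the nuclear antigen NeuN, and *Rbfox2* is also expressed in many other cell types. All 3 genes use alternative first exons, which change the N-terminal part of the protein or the untranslated leader.

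The labelled cell type was checked against marker genes. A peak at a transcript start was present for 10 of 10 DN markers, for 2 of 2 general neuronal genes, for 1 of 4 oligodendrocyte markers (*Mbp*), 1 of 2 astrocyte markers (*Gfap*) and 0 of 2 microglial markers. Over the gene body the counts were the same, except that the microglial *Cx3cr1*, 168 kb long in the annotation, held 9 peaks. According to the methods of the study, the DN cluster was picked by accessibility at *Th* and other DN markers, so the first count is not independent of that choice. The part of the other cell types in the values below was not tested.

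Transcript starts at most 500 bp apart were joined into a cluster, and a cluster was called accessible when a peak lay within 500 bp of it. The sequences below show DNA near starts with and without a peak, because CpG content around the starts is described below. They come from the GRCm38 (mm10) reference, are written 5′ to 3′ on the strand of the gene with each CG in capitals, and overlap no annotated exon. For starts with a peak the stretch is a part of a peak within 500 bp, which is not always the peak over the start. The Rbfox1-201 and *Rbfox2* stretches lie downstream of their starts, and the outermost *Rbfox1* and Rbfox3-209 stretches lie upstream. For starts without a peak it is the DNA just before the start. At the outermost *Rbfox1* start the stretch comes from the peak just before the gene, which is not among the 19 counted in the gene body, and it holds 1 CG.
Rbfox1 outermost start, with a peak, chr16:5884659-5884792, plus strand: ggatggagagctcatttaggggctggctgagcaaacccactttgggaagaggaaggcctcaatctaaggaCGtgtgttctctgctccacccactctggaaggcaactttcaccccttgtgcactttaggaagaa
Rbfox1-201 start, with a peak, chr16:6349232-6349307, plus strand: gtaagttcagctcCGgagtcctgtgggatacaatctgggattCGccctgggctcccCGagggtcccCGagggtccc
Rbfox1-208 start, no peak, chr16:7193647-7193746, plus strand: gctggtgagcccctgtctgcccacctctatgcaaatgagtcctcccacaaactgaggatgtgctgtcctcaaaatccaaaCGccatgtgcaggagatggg
Rbfox1-207 start, no peak, chr16:7224210-7224309, plus strand: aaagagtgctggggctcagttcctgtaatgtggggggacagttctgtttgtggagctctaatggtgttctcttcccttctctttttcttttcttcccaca
Rbfox2 start of 6 transcripts, with a peak, chr15:77153025-77153224, minus strand: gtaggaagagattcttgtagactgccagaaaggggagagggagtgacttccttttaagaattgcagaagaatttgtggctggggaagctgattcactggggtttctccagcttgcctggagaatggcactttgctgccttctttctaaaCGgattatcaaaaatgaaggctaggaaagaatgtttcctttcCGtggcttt
Rbfox3-202 start, no peak, chr11:118911598-118911697, minus strand: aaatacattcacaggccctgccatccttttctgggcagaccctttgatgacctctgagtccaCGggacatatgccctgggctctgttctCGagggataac
Rbfox3-203 start, no peak, chr11:118761042-118761141, minus strand: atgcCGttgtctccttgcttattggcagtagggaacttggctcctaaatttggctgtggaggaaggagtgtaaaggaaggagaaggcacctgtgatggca
Rbfox3-209 start, with a peak, chr11:118570137-118570336, minus strand: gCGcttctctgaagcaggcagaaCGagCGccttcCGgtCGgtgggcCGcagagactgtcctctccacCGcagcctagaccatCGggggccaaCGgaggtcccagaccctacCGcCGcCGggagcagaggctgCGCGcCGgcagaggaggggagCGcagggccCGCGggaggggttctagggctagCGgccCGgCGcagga

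*Rbfox1* (ENSMUSG00000008658, chr16:5885355-7411526, plus strand) is 1526 kb long and held 19 peaks. *Rbfox2* (ENSMUSG00000033565, chr15:77078990-77307004, minus strand) is 228 kb long and held 16 peaks. *Rbfox3* (ENSMUSG00000025576, chr11:118489762-118911597, minus strand) is 422 kb long and held 42 peaks. The number of peaks therefore did not follow gene length within the family. The density was 12.4 peaks per Mb in *Rbfox1*, 70.2 in *Rbfox2* and 99.6 in *Rbfox3*, and peaks covered 0.614%, 3.30% and 4.98% of the gene bodies.

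At the edges of the genes, 1 *Rbfox2* peak lay inside by only 26 bp. The nearest peak left out was 196 bp before the annotated start of *Rbfox1*. All other peaks of the 3 genes except the first of *Rbfox1*, which had 368 bp inside, lay wholly within the gene bodies.

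Each member was set beside protein-coding genes whose length was within a factor of 1.5. *Rbfox1* was close to its length class: the median over 55 genes was 10.5 peaks per Mb (quartiles 5.58 and 15.4), and 22 of them (40.0%) were at or above *Rbfox1*. *Rbfox2* was 3.63 times the median of 983 genes, which was 19.3 peaks per Mb, and 79 genes (8.04%) were at or above it, a share that rose to 14.2% when peaks within 500 bp of any annotated start were left out. *Rbfox3* was 6.77 times the median of 474 genes, 14.7 peaks per Mb, and 8 genes (1.69%) were at or above it. Among the 1476 protein-coding genes longer than 150 kb, *Rbfox3* ranked 44, *Rbfox2* ranked 96 and *Rbfox1* ranked 896 by density.

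GC content was set beside that of the same length classes, and the 3 members did not differ from their classes in GC in the order of their density. The *Rbfox3* gene body was 51.9% GC against a median of 41.4% in its length class, where 0.211% of the genes were as GC-rich. *Rbfox2* was 43.4% GC against 42.4%, with 40.7% of its class as GC-rich. *Rbfox1* was 42.1% GC against 38.6%, with 18.2% of its class as GC-rich. Against genes within a factor of 2 in length and 2 percentage points of GC, a comparison added after the data were seen, *Rbfox3* was 2.07 times the median of only 8 genes, which was 48.1 peaks per Mb and ranged from 4.67 to 90.9. None of these 8 genes was at or above it. *Rbfox2* was 2.98 times the median of 654 such genes, of which 37 (5.66%) were at or above it. *Rbfox1* was at 0.758 times the median of 31 such genes, 16.4 peaks per Mb, and 21 of the 31 (67.7%) were at or above it. The part of GC content in the densities was not tested further.

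**Figure D1:**
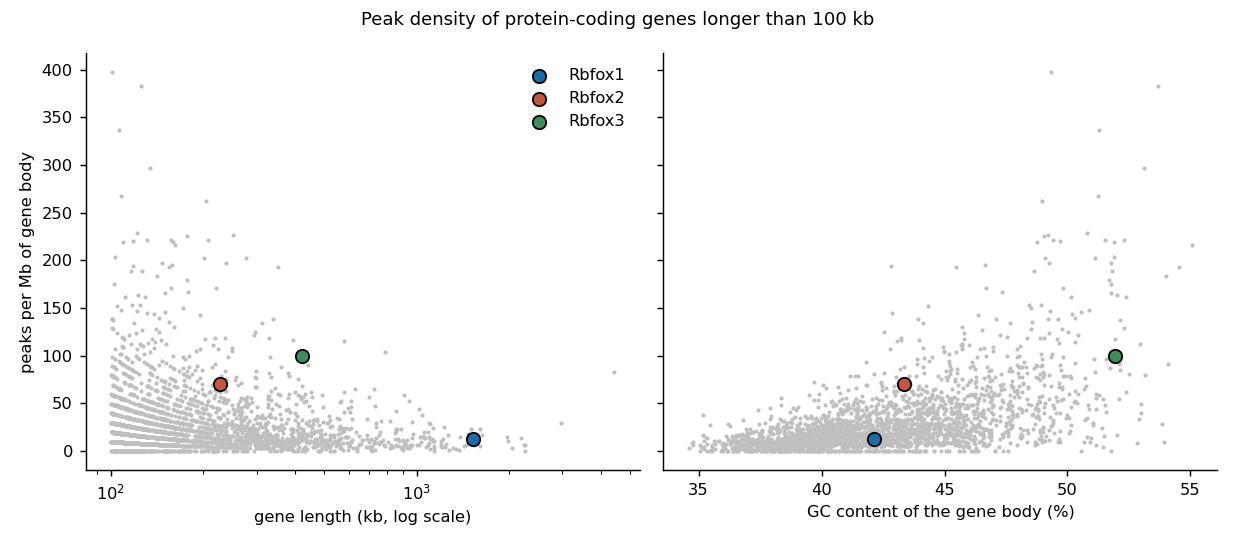
Peaks per Mb of gene body against gene length (left, log scale) and against GC content of the gene body (right) for protein-coding genes longer than 100 kb (grey points), with the 3 Rbfox genes in colour. *Rbfox3*, at 99.6 peaks per Mb, stood high for its length, and its GC content of 51.9% was also high.

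The genes nearest in length give the scale of this spread. Beside *Rbfox1*, *Pde4d*, which encodes a cAMP phosphodiesterase, held 35 peaks, while the adhesion genes *Pcdh15* and *Ctnna3* held 10 and 11. Beside *Rbfox2*, *Rnf150* held 4 peaks, *Pdzrn3* 13 and *Cobl*, an actin nucleator, 8. Beside *Rbfox3*, the postsynaptic scaffold gene *Shank2* held 29 peaks, the phosphatase subunit gene *Ppp2r2b* 14 and the transcription factor gene *Glis3* none. *Rbfox1* ranked 20 by number of peaks among the 59 protein-coding genes of at least 1 Mb, whose median was 14.

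The alternative starts differed between the members. In *Rbfox1* 2 of 7 start clusters had a peak, in *Rbfox2* 5 of 7 and in *Rbfox3* 4 of 7, which is 11 of 21 in all. A peak was present at 31.2% of start clusters of all protein-coding genes, at 31.3% of those in genes longer than 150 kb, and at 71.2% of the outermost clusters of these long genes. The *Rbfox1* count was close to this background.

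In *Rbfox1* the accessible clusters were the outermost ones, at the 5′ end (Rbfox1-204 and Rbfox1-205) and 464 kb in (Rbfox1-201). Their peaks lay over the start, with centres 114 bp and 80 bp away. The 5 clusters downstream had none: the nearest peak centre was 17.4 kb from Rbfox1-202, 83.5 kb from Rbfox1-203, 14.1 kb from Rbfox1-208, 5.07 kb from Rbfox1-207 and 124 kb from Rbfox1-206. Of the 5 clusters that hold a transcript of the GENCODE basic set, its subset of representative transcripts, only that of Rbfox1-201 had a peak.

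*Rbfox2* had a peak at its outermost cluster, which holds 3 transcripts, and at clusters 61.4 kb, 104 kb, 153 kb and 217 kb from the 5′ end. The cluster 153 kb in, with 6 coding transcripts, had 2 peaks within 500 bp. The clusters 174 kb and 221 kb in had none. Both clusters with a basic transcript were accessible.

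*Rbfox3* had no peak at its outermost cluster, the single start of Rbfox3-202, where the nearest peak centre was 1307 bp away, upstream. The cluster 2.02 kb in, which holds 4 coding transcripts, had a peak over a start, 139 bp from its centre. The start of Rbfox3-208, 3.59 kb in, had 2 peaks within 500 bp. That of Rbfox3-207, 22.9 kb in, and that of the coding transcript Rbfox3-203, 151 kb in, had none, with the nearest peak centres 4.79 kb and 6.26 kb away. The cluster of Rbfox3-209, 342 kb in, had 2 peaks, and so had that of Rbfox3-210, 404 kb in. Of the 3 clusters with a basic transcript 1 was accessible, which makes 4 of 10 over the 3 genes, beside 57.0% of such clusters in genes longer than 150 kb.

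RefSeq models of the same build, added after the data were seen, gave 4 of 10 accessible clusters in *Rbfox1*, 4 of 5 in *Rbfox2* and 1 of 8 in *Rbfox3*. The 4 in *Rbfox1* are 2 pairs at the same places as the 2 GENCODE clusters. A share of 54.7% of the *Rbfox1* models, 66.7% of the *Rbfox2* models and 32.0% of the *Rbfox3* models began at an accessible cluster. In RefSeq protein-coding genes longer than 150 kb, 42.5% of clusters had a peak and 61.3% of models began at one.

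Accessible and other starts were separated in part by CpG content. In the 500 bp around a cluster, the ratio of observed to expected CpG was above 0.6 at 6 of the 21 clusters, and all 6 had a peak. Of the 15 clusters at or below 0.6, 5 had a peak, 4 of them in *Rbfox2*. In genes longer than 150 kb, 82.0% of 1446 clusters above 0.6 and 15.6% of 4675 others had a peak. The *Rbfox1* starts with a peak had ratios of 0.788 and 0.673, and those without ranged from 0.0429 to 0.429. *Rbfox2* clusters at 61.4 kb, 104 kb and 153 kb had ratios of 0.293, 0.230 and 0.271, yet each had a peak. The outermost *Rbfox3* cluster had 0.0613, and the cluster 2.02 kb in had 0.857. The stretches printed above, which leave out the exons, show this only in part. The 200 bp printed upstream of the Rbfox3-209 start, with a peak, carry 21 CG and the 100 bp before the Rbfox1-207 start, without one, carry none. The 200 bp printed downstream of the *Rbfox2* start of 6 transcripts, with a peak, carry 2 CG. So do the 100 bp before the Rbfox3-202 start, without one. These stretches differ in length and in their place relative to the start.

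**Figure D2:**
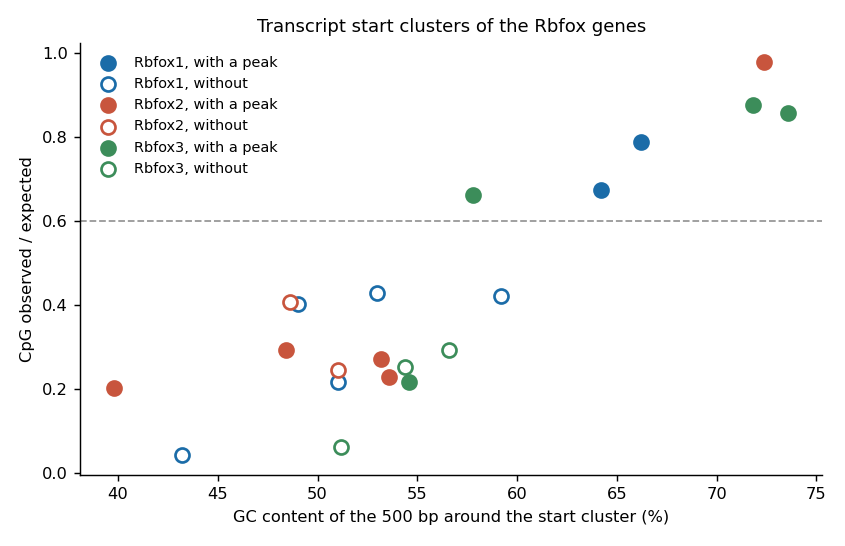
CpG observed over expected against GC content for the 500 bp around each of the 21 start clusters of the Rbfox genes, with filled points for clusters with a peak within 500 bp and open points for those without. All 6 clusters above the dashed line at 0.6 had a peak, and 5 of the 15 below it did, 4 of them in *Rbfox2*.

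In *Rbfox1* and *Rbfox3* most peaks lay away from starts and exons. In *Rbfox1* 17 of 19 peaks and in *Rbfox3* 40 of 42 overlapped no exon of the gene, and in *Rbfox2* 7 of 16 overlapped none. The share of peaks outside exons was not computed for other genes, so these exon counts have no background. Peaks within 500 bp of an annotated start of any gene were 2 of 19 in *Rbfox1* (10.5%), 7 of 16 in *Rbfox2* (43.8%) and 8 of 42 in *Rbfox3* (19.0%), beside 35.7% of all peaks.

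Along the genes, 5′ to 3′, 4 parts of equal length held 5, 8, 4 and 2 peaks in *Rbfox1*, 1, 4, 3 and 8 in *Rbfox2*, and 10, 15, 9 and 8 in *Rbfox3*. In *Rbfox1* and *Rbfox3* the upstream introns before the first coding exon held most of them. Before the first annotated coding base lay 60.5% of *Rbfox1* with 15 of its 19 peaks, and 94.4% of *Rbfox3* with 40 of its 42.

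The exons that all basic coding transcripts share encode the common part of each protein. In *Rbfox1* these span 133 kb and had no peak, and the last peak of the gene lay 182 kb before its 3′ end. In *Rbfox3* they span 19.2 kb with 2 peaks, a density of 104 per Mb against 100.4 before them. In *Rbfox2* they span 46.9 kb with 3 peaks.

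*Rbfox2* ended in a group of 5 peaks over its last exon of 5.22 kb, of which 0.997% is coding sequence. The last of the 5 is the peak that reaches only 26 bp into the gene, so the count of 5 rests on that overlap. A further peak lay 839 bp past the end of the gene. Among the 1476 protein-coding genes longer than 150 kb, 8.20% had any peak over the last exon and 2, *Rbfox2* among them, had 5 or more, with a median last exon of 2.14 kb. The antisense gene *1700109K24Rik* starts 223 kb from the 5′ end of *Rbfox2* and runs back into it, over the peaks at 216.3 kb and 216.9 kb and over none of the 5 at the last exon. Accessibility has no strand, so at those 2 peaks the genes cannot be told apart. The same holds in *Rbfox3* for the peaks at 117.8 kb and 120.02 kb, which lie over the opposite-strand lincRNA gene *Gm11750*, the latter within 500 bp of its start.

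Spacing also differed. Neighbouring peaks were a median of 56.9 kb apart in *Rbfox1*, 1.19 kb in *Rbfox2* and 5.36 kb in *Rbfox3*. In *Rbfox2* 9 of 15 neighbours were within 3 kb of each other, in *Rbfox3* 14 of 41, and in *Rbfox1* 1 of 18. The widest gap was 221 kb in *Rbfox1*, 60.5 kb in *Rbfox2*, where it spans nearly all of the DNA between the first 2 start clusters, and 43.2 kb in *Rbfox3*.

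**Figure D3:**
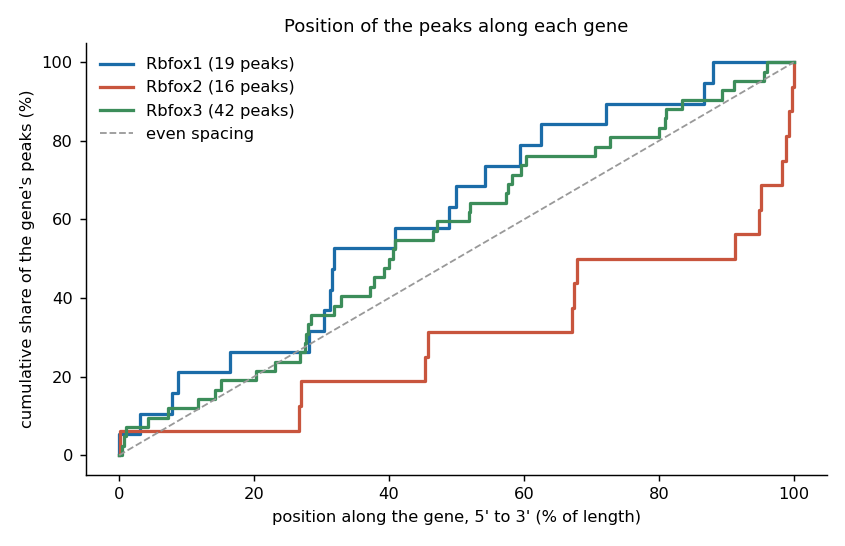
Cumulative share of each gene's peaks against position along the gene, in percent of length from the 5′ end, with a dashed line for even spacing. *Rbfox3* stayed nearest to even spacing, *Rbfox1* ran ahead of it with 2 peaks in the last of 4 equal parts, and *Rbfox2* rose late with 8 of 16 peaks there.

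The surroundings differed as well. In the 500 kb before and after *Rbfox1*, which hold no protein-coding gene, there were 13 and 3 peaks. *Rbfox2* had 7 peaks in the 500 kb before its start, with 443 kb between the gene and the nearest one, although 14 protein-coding genes lie in these 500 kb. After its end there were 57 peaks by their centres, 1 of which is the peak that reaches 26 bp into the gene and is also counted there. *Rbfox3* had 52 before and 63 after, densities of 104 and 126 per Mb beside 99.6 in the gene. Its density was close to that of the DNA on both sides.

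The nearest protein-coding genes on both sides were short, from 5.03 to 15.9 kb, so their counts are small whatever their density. Beside *Rbfox1*, *Eef2kmt* had 2 peaks (169.03 per Mb) at a distance of 629 kb and *Tmem114* none at 998 kb. *Apol6* and *Apol7a*, of the apolipoprotein L family, had none beside *Rbfox2*. *Engase*, 0.552 kb after the end of *Rbfox3*, had 1 peak (80.8 per Mb), and *Enpp7* had none. The median over all protein-coding genes was 29.2 peaks per Mb.

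The sequence of the peaks away from starts followed the gene they came from. Their median GC content was 45.6% in *Rbfox1*, 47.6% in *Rbfox2* and 53.7% in *Rbfox3*, beside 49.0% over all 35587 such peaks. Their median CpG ratio was 0.183, 0.188 and 0.226, beside 0.237.

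Short factor motifs were counted on both strands in the 77 peaks and in all peaks, as a description of letters and not of binding. Peaks within 500 bp of a start were 22.1% of the 77 and 35.7% of all peaks. Over all peaks their median GC content was 60.8%, beside 49.0% farther from starts. The motif shares were not split by distance to starts. Forkhead words (TGTTTAC or TATTTAC) were in 9 peaks (11.7%, beside 12.8% of all peaks). The Nr4a word AAGGTCA was in 8 (10.4% beside 10.0%), and the E-box CAGATG in 22 (28.6% beside 32.2%). The Otx and Pitx word TAATCC was in 8 (10.4% beside 13.6%), 6 of them in *Rbfox2*. The homeodomain word TAATTA was in 11 (14.3% beside 7.27%) and the AP-1 word TGANTCA in 15 (19.5% beside 12.3%), 10 of these in *Rbfox3*. The Sp and Klf word GGGCGG was in 11 (14.3% beside 32.3%), and the CRE word TGACGTCA in none (beside 1.51%). None of these words contains another, but a match to the CTCF consensus below can hold CAGATG. The match at 906 kb in *Rbfox1* does, and its peak holds a further CAGATG elsewhere.

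The consensus of CTCF, a factor that often marks loop anchors, matched in 5 of the 77 peaks (6.49%, beside 5.25% of all peaks). All 5 matches lay within 28 bp of the peak centre. They are shown because a pair of *Rbfox3* peaks 1.07 kb apart both held one. Each is written 5′ to 3′ on the strand of the match, with the consensus in capitals. In *Rbfox3* the matches at 171 kb and 172 kb are on the strand of the gene and that at 338 kb is on the opposite strand, and in *Rbfox1* the match at 46.6 kb is opposite and that at 906 kb is on the strand of the gene.
Rbfox1 46.6 kb in, chr16:5931909-5931948, minus strand: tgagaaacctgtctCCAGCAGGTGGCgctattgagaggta
Rbfox1 906 kb in, chr16:6791809-6791848, plus strand: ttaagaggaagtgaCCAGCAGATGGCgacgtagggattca
Rbfox3 171 kb in, chr11:118740161-118740200, minus strand: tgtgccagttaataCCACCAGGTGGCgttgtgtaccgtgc
Rbfox3 172 kb in, chr11:118739051-118739090, minus strand: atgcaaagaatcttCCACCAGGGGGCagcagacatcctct
Rbfox3 338 kb in, chr11:118573712-118573751, plus strand: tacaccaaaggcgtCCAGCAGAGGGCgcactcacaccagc

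Of the 77 peaks, 1 held words of 3 of the 4 factor classes forkhead, homeodomain, Otx and Pitx, and Nr4a, which include known regulators of midbrain DNs, beside 0.703% of all peaks with 3. It lies in an intron of *Rbfox1*, 119 kb from the 5′ end and 108 kb from the nearest exon, and was picked after its content was seen. The stretch that holds the words is shown with the matched letters in capitals.
Rbfox1 119 kb in, chr16:6003839-6003947, plus strand: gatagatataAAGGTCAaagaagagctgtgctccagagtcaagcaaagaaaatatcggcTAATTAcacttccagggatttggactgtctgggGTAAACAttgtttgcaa

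Splicing regulators other than the Rbfox genes give the setting within the same machinery. Of 30 such genes 27 had a peak, and the same number had one at a start, beside 63.8% and 57.4% of all protein-coding genes. Their 130 start clusters had a peak at 53, or 40.8%, beside the 31.2% of all protein-coding start clusters. Among the 19 longer than 50 kb the median density was 31.6 peaks per Mb. *Celf4* was densest at 202.5 peaks per Mb, followed by *Srrm3*, a regulator of neuronal microexons, at 162.04 and *Msi2* at 81.8. *Rbfox3* was exceeded by 2 of the 19, *Rbfox2* by 3 and *Rbfox1* by 17. These genes were not matched for length, and *Rbfox1* was longer than all 19. The lowest were *Mbnl3* and *Esrp1* with no peak and *Ptbp3*, a relative of the neuronal repressor *Ptbp2*, at 12.9. *Mbnl3* and the epithelial regulators *Esrp1* and *Esrp2* were the genes without an accessible start. All 8 genes of proteins that associate with Rbfox in the large assembly of splicing regulators, such as *Hnrnpm* and *Matr3*, had a peak at a start, at 11 of 35 clusters. That is 31.4%, close to the same background of 31.2%.

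**Figure D4:**
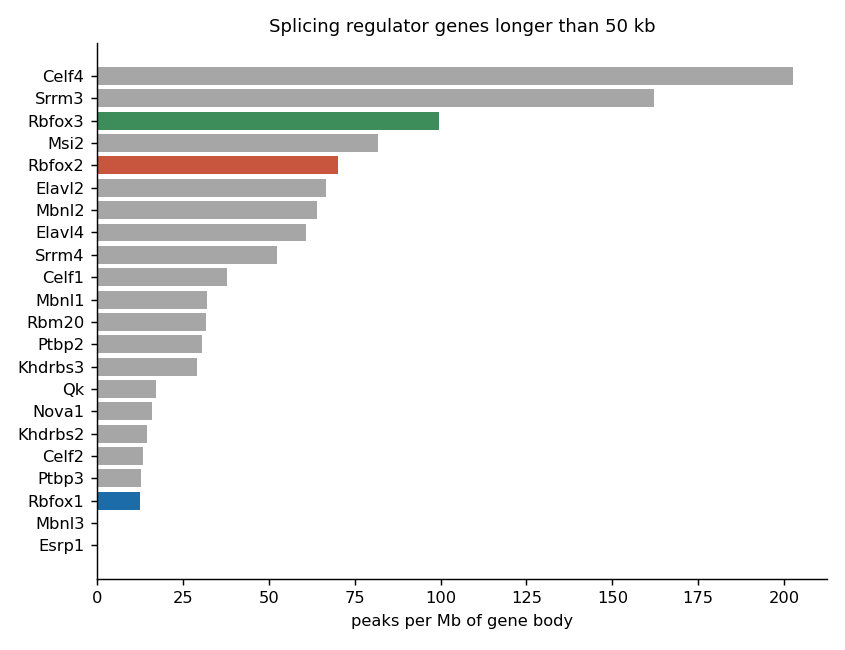
Peaks per Mb of gene body for splicing regulator genes longer than 50 kb (grey bars) and the 3 Rbfox genes (coloured bars). *Celf4* and *Srrm3* lay above *Rbfox3*, *Msi2* lay between *Rbfox3* and *Rbfox2*, and *Rbfox1* lay below 17 of the 19 grey genes. The genes were not matched for length.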

How the data were processed

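DN nuclei of 2 VTA snATAC-seq libraries were the source. Per the labels and the study's methods, the authors mapped reads to mm10 with Cell Ranger and removed doublets and low-quality nuclei. They called reproducible DN peaks in ArchR on pseudobulk replicates. The input here was 1 merged list of peak positions that pools the libraries. According to the paper, aligned reads and signal tracks of the DNs are also available, and these were not used here. The values have no unit beyond coordinates. Starts were read as counted from 0 and printed from 1. ArchR peaks are usually 501 bp wide and the listed interval is 500 bp, so the starts may have been counted from 1. No peak passed the end of a GRCm38 chromosome. Genes and starts came from GENCODE M21, sequences from the GRCm38.p6 genome, with Python 3.11.15, pysam 0.24.0 and scipy 1.17.1. Counting and motif steps were tested on simulated data with planted peaks and words. Named genes were the members, the 3 genes nearest to each in length, neighbouring protein-coding genes, and the densest, sparsest and start-less splicing regulators. The members and lists were chosen with earlier results of these data known. Alternatives covered peak assignment, length class, starts, gene parts and the motif window. Published scores per gene were not used.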

Additional observations from a re-analysis of the deposited data

How the results depend on the processing

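The members' values were recomputed under 62 alternatives, of which 44 stayed within 1.5 times the count or within the 95% binomial interval of the share. Counts of peaks per gene stayed within 1.5 times under every assignment tried (19 to 20, 15 to 16 and 42 to 44). With peaks near starts left out, 14.2% of genes of like length were at or above *Rbfox2*. With genes of like length and GC, chosen after seeing the data, the shares at or above were 67.7% for *Rbfox1*, 5.66% for *Rbfox2* and 0% of 8 genes for *Rbfox3*. Accessible starts were 3 of 4 in *Rbfox2* with coding transcripts only (beside 45.4% of clusters in genes longer than 150 kb), 11 of 13 in *Rbfox2* and 20 of 30 in all when each distinct start was counted (beside 46.4%), 2 of 7 in *Rbfox3* when the peak had to lie over the start (beside 24.6%), and 4 of 10 in *Rbfox1* and 1 of 8 in *Rbfox3* with RefSeq models (beside 42.5%), also chosen after seeing the data. With 3 equal parts the first held 52.6% of *Rbfox1*, 18.75% of *Rbfox2* and 40.5% of *Rbfox3* peaks. With 4 parts it held 26.3%, 6.25% and 23.8%. The first of 3 parts is longer than the first of 4, so even spacing alone raises its share. Without peaks near starts the first of 4 parts of *Rbfox2* held 0%. In the central 250 bp of the peaks 5 of the 9 motif counts moved by over 1.5 times, and a shorter window can only lower a count. Forkhead went from 9 to 5 (6.49%, beside 7.44% of all peaks in this window) and E-box from 22 to 14 (18.2% beside 18.3%). Homeodomain went from 11 to 7 (9.09% beside 2.73%). Otx and Pitx went from 8 to 3 (3.90% beside 6.89%) and Nr4a from 8 to 5 (6.49% beside 5.44%). The cause of these shifts was not tested, beyond the construction of each alternative. A stricter peak threshold and leaving out a library could not be run on a list without scores that pools both libraries. No paired analysis was possible because the list holds no value per library.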
